A study of Mus musculus with 36 samples.

Results

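The transcript Oas1b was nearly dark in 7 of 36 mouse spleens and well measured in the other 29, with no array between. The members were chosen by the measured level of this transcript: a spleen was placed in the low set where log2(intensity + 16) of the 1 Oas1b probe set was below 6.2, and in the high set where it was at or above that value. The sets were therefore made from the measured values and are not groups of the labels, so the Oas1b levels are a description and were not tested. The low set held 3 arthritic spleens (replicates 12, 14 and 18) and 4 non-arthritic spleens (replicates 2, 5, 10 and 13). The high set held 15 arthritic and 14 non-arthritic spleens.

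The series compared spleen RNA of 18 mice labelled arthritic with that of 18 labelled non-arthritic, each on 1 Affymetrix array. The design text gives a total number of mice that does not match its own group sizes, and the 36 labelled samples were each taken as a separate mouse. Every mouse was 4 months old and an F2 animal of a cross. The title of the series names a deficiency for the interleukin 1 receptor antagonist in the arthritic mice. The labels give no genotype, parental strain, sex or treatment for any mouse, so the alleles that the 2 sets carried at the Oas locus are not given in the sources used here.

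Oligoadenylate synthetases (OAS) are interferon-induced enzymes that bind double-stranded RNA of viruses and make short chains of linked adenosines. These chains activate the ribonuclease RNase L, which cuts viral and cellular RNA. Oas1b is the mouse flavivirus resistance gene: common laboratory strains carry a premature stop codon in it, while some strains derived from wild mice carry the full-length form. RefSeq annotates Oas1b on its C57BL/6J-based assembly GRCm38.p6 as a transcribed pseudogene on chromosome 5, where it lies in a cluster with the other Oas1 genes, Oas2 and Oas3. Oasl1 and Oasl2, which are OAS-like proteins, lie further along the same chromosome. The Oas1 genes are close copies of one another, and how far the probes of 1 copy also bind another was not tested.

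The Oas1a, Oas1c and Oas3 promoters are shown because these genes lie in the same cluster as Oas1b and differed to unequal degrees between the sets. Each sequence is the 250 bases before the gene start, from RefSeq on GRCm38.p6, read 5′ to 3′ on the strand of the gene. Capitals mark a motif of GAAA, any 2 bases and GAAA, the core of the element bound by interferon regulatory factors, searched on both strands with overlaps allowed. It was found in 2.98% of 32851 promoter windows of that length (978 windows). Of the 8 OAS genes in the promoter table, 4 held it. Oas1b has no entry there. The Oas1a window (chr5:120907526-120907775, minus strand) holds it at 20 and 14 bases before the start, in 2 copies that overlap:
Oas1a: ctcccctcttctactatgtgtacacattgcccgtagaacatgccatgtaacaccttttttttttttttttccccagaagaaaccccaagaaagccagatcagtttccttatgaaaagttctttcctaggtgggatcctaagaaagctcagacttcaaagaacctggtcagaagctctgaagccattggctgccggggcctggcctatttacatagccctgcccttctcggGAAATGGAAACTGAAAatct
The Oas1c window (chr5:120812515-120812764, minus strand) holds 2 overlapping copies on the opposite strand, at 114 and 108 bases before the start:
Oas1c: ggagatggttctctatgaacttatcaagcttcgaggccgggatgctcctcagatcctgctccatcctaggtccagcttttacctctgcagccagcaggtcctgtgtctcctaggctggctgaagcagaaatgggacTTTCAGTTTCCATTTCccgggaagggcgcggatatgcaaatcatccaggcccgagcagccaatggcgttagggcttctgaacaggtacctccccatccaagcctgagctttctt
The Oas3 window (chr5:120777660-120777909, minus strand) holds 1 copy at 75 bases before the start:
Oas3: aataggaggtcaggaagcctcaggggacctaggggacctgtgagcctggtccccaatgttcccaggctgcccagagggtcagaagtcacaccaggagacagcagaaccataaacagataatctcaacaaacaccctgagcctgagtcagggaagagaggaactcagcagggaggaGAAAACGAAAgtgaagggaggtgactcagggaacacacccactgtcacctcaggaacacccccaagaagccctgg
A match is a description of the letters and not a measured binding site.

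Oas1b itself had log2 levels of 4.81 in non-arthritic 2, 5.13 in arthritic 18, 5.20 in non-arthritic 13, 5.22 in non-arthritic 10, 5.24 in arthritic 14, 5.31 in arthritic 12 and 5.38 in non-arthritic 5. The 29 high spleens ran from 7.24 through a median of 7.99 to 9.46. The means were 5.18 ± 0.18 (SD, n = 7) and 8.13 ± 0.54 (SD, n = 29). The arrays nearest the dividing value were non-arthritic 5 at 5.38 and arthritic 5 at 7.24. On the linear scale the low set had intensities of 12.1 to 25.5 and the high set 134.8 to 687.8. The median low intensity exceeded that of 17.6% of all probe sets on the arrays and the median high intensity that of 60.4%.

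Fisher's exact test of set against arthritis label gave p = 1 (two-sided). Technical batches were read from the hybridisation controls, RNAs of known identity that are added to every sample before hybridisation. Clusters of these controls, centred on each array's mean, gave batches A, B and C of 13, 16 and 7 arrays, which held 2, 3 and 2 low spleens (Fisher's exact test, two-sided, p = 0.747). Batch A held no low arthritic spleen. Clusters of the same controls without centring gave 9, 19 and 8 arrays with 2, 5 and 0 low spleens (Fisher's exact test, two-sided, p = 0.395). Mean control level ran from 11.36 to 11.96 in the 9 arrays, from 10.13 to 10.77 in the 19 and from 10.95 to 11.26 in the 8 on the log2 scale. These uncentred clusters were formed from the same control levels, so their separation in mean level is no separate evidence of batches. The choice between the clusterings changed the number of genes called, as given below.

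With the arthritis label as a term, 2 of 27021 tested probe sets (0.00740%) differed between the sets at a limma adjusted p under 0.05, and both were higher in the high set. They belong to Oas1a, a synthetase gene that starts 0.0836 Mb from Oas1b, and to Stx2, a syntaxin that acts in membrane fusion. Both genes lie on chromosome 5. In all, 2588 probe sets (9.58%) had an unadjusted p under 0.05, and in 0 of the 27021 did the 2 sets fail to overlap. The count of calls rested on how batches were treated. With the batches from centred controls as a block limma called 3 (0.0111%), the third being Ranbp2, a nuclear pore protein, at 0.37 (SE 0.07, adjusted p = 0.0257). With the batches from uncentred controls as a block it called 427 (1.58%), of which 342 were higher and 85 lower, and 14 lay within 30 Mb of Oas1b. Oas1a and Stx2 were called in all 3 of these fits.

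Oas1a was the gene that differed most. Its log2 levels in the low set were 5.19 in arthritic 18, 5.40 in arthritic 12, 5.85 in non-arthritic 10, 5.91 in non-arthritic 13, 7.23 in non-arthritic 5, 7.67 in arthritic 14 and 9.27 in non-arthritic 2. The high set ran from 6.92 through a median of 9.36 to 11.88. Non-arthritic 2 alone of the low set lay among the bulk of the high spleens. It had the lowest Oas1b level of all arrays and an Oas1a level above 13 of the 29 high spleens. The exception in the other direction was non-arthritic 11, in the high set with Oas1b at 7.28 and Oas1a at 6.92. No array lay between 7.67 and 8.78 on the Oas1a scale.

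Oas1a rose by 2.86 (SE 0.38) on the log2 scale in the high set, a 7.25-fold difference (limma adjusted p = 1.68e-04). The means were 6.65 ± 1.48 (SD, n = 7) and 9.53 ± 0.83 (SD, n = 29). Within batches A, B and C from centred controls the difference of means, with no term for label, was 1.58, 3.13 and 3.64. In batch A the 2 low spleens were non-arthritic and 9 of the 11 high ones arthritic, so its value mixes set with label. Its 2 non-arthritic high spleens were at 8.93 and 8.78, beside 9.27 and 7.23 in its low ones. In arthritic spleens alone the Oas1a difference was 3.75 (SE 0.48, adjusted p = 0.00290) and in non-arthritic spleens alone 2.14 (SE 0.50, adjusted p = 0.465). With the batches from centred controls as a block, Oas1a no longer passed in arthritic spleens alone, where 0 probe sets were called. The interaction of set with label was 1.60 with an adjusted p of 0.248, so a difference between the labels did not pass. The Wilcoxon rank-sum test gave an adjusted p of 0.599 for Oas1a.

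**Figure D1:**
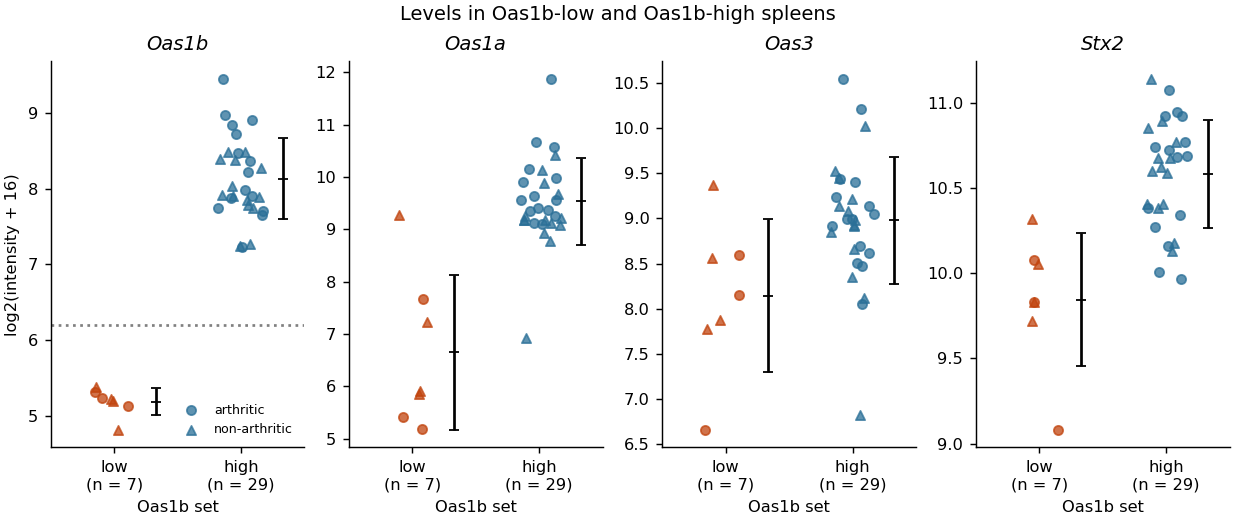
Log2(intensity + 16) of Oas1b, Oas1a, Oas3 and Stx2 in each spleen of the low set (n = 7, orange) and the high set (n = 29, blue); circles are arthritic and triangles non-arthritic spleens, black marks give mean ± SD, each panel has its own scale and the dotted line is the dividing value of 6.2. Oas1b separates by construction, 1 low spleen lies at 9.27 among the high ones for Oas1a, and the sets overlap for Oas3 and Stx2.

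**Figure D2:**
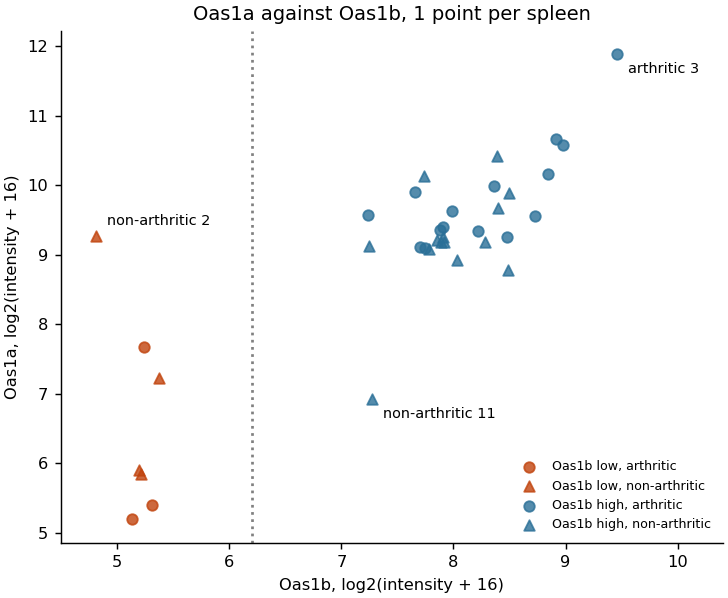
Oas1a against Oas1b, both as log2(intensity + 16), with 1 point per spleen and the dividing value of 6.2 as a dotted line. Non-arthritic 2 has the lowest Oas1b (4.81) with Oas1a at 9.27, non-arthritic 11 has Oas1a at 6.92 in the high set, and arthritic 3 is highest for both (9.46 and 11.88).

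Stx2 starts 8.17 Mb from Oas1b. Its low spleens were at 9.08 in arthritic 18, 9.72 in non-arthritic 5, 9.83 in non-arthritic 2, 9.83 in arthritic 14, 10.06 in non-arthritic 13, 10.08 in arthritic 12 and 10.32 in non-arthritic 10. The high spleens ran from 9.97 through a median of 10.67 to 11.14. The sets overlapped, with 6 high spleens below the highest low one. Stx2 rose by 0.74 (SE 0.14) in the high set, a 1.67-fold difference (limma adjusted p = 0.0397), and differed by 0.88, 0.78 and 0.60 within batches A, B and C. The call was close to the threshold and was lost under 7 of 13 other settings and in 21 of the 36 fits that left out 1 array, with an adjusted p of 0.521 without arthritic 18.

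Among the other synthetases the difference was smaller and passed in none. Oas3, the largest enzyme of the family, was at 6.66 in arthritic 18, 7.77 in non-arthritic 5, 7.88 in non-arthritic 2, 8.15 in arthritic 14, 8.57 in non-arthritic 10, 8.60 in arthritic 12 and 9.37 in non-arthritic 13. The high spleens ran from 6.82 through 8.99 to 10.55 and 22 of the 29 lay below the highest low spleen. The difference for Oas3 was 0.83 (SE 0.29, adjusted p = 0.328). With no term for label, its difference of means was 1.16, 0.74 and 0.82 in batches A, B and C. In batch A the 2 non-arthritic high spleens were at 6.82 and 9.13, beside the low ones, also non-arthritic, at 7.77 and 7.88. The other 9 high spleens of that batch were arthritic. Oasl2 ran from 7.14 to 8.57 in the low and from 7.71 to 11.21 in the high set, with a difference of 0.68 (SE 0.27, adjusted p = 0.389). Oas1c and Oas2 differed by 0.19 (SE 0.15) and 0.18 (SE 0.30). Oasl1, which restrains interferon production through Irf7, differed by -0.003 (SE 0.21), and the sign of this value turned under 7 of 13 other settings.

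Over the family, 6 of 11 members besides Oas1b were tested, with 1 called higher and a median difference of 0.43. Oas1e, Oas1f and Oas1h were below the filter on low values, and Oas1d and Oas1g had no probe set of their own.

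Genes that neighbour the Oas cluster were taken apart from the rest. Within 2 Mb of Oas1b, 79 probe sets were tested and 1 (Oas1a) was called. Of these, 7 (8.86%) had an unadjusted p under 0.05, all higher, and the median difference was 0.05. From 2 to 10 Mb, 264 probe sets gave 1 call (Stx2) and 13.6% at an unadjusted p under 0.05. From 10 to 30 Mb it was 11.7% of 515 with 0 calls, on the rest of chromosome 5 9.5% of 579 with 0 calls, and on other chromosomes 10% of 21108 with 0 calls. The shares near Oas1b are to be read against 9.58% over all probe sets, of which 5.29% were higher and 4.29% lower. That total includes 4476 probe sets with no position, at 6.9%. With the batches from centred controls as a block the shares were 21.5% within 2 Mb, 21.2% from 2 to 10 Mb and 18.6% from 10 to 30 Mb. In that fit they were 16.9% on the rest of chromosome 5, 16.3% on other chromosomes and 15.5% over all probe sets.

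Of 25 listed neighbours of the Oas cluster, 20 were tested and 0 passed, with a median of 0.03. The 3 with an unadjusted p under 0.05 were Erp29, an endoplasmic reticulum chaperone, at 0.35 (SE 0.10, adjusted p = 0.288), Hectd4 at 0.29 (SE 0.12) and the endolysosomal channel Tpcn1 at 0.27 (SE 0.12). The GTPase regulator Rasal1 stood at -0.46 (SE 0.26). P2rx7, an ATP-gated channel of immune cells that lies 1.83 Mb away and was picked after its values were seen, differed by 0.48 (SE 0.12, adjusted p = 0.280) on 1 probe set. Its other 2 probe sets gave 0.33 and -0.23 and so disagreed in direction. The first passed with the batches from uncentred controls as a block, at 0.51 (adjusted p = 0.0345).

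**Figure D3:**
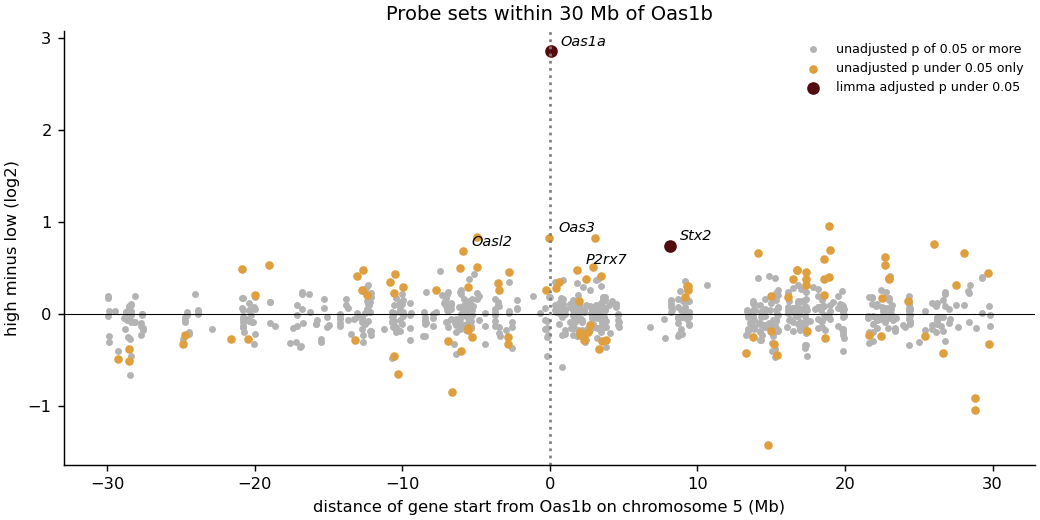
High minus low difference (log2) of each tested probe set against the distance of its gene start from Oas1b on chromosome 5, within 30 Mb; grey, orange and dark points mark the limma p-values named in the key. Oas1a at 2.86 is the highest point, Stx2 at 0.74 lies 8.17 Mb away, and the remaining probe sets scatter around 0.

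The interferon pathway was examined next, because interferon drives the OAS genes. Of 22 tested interferon-stimulated genes 0 were called, 5 were higher and 2 lower at an unadjusted p under 0.05, and the median was 0.08. Over all 12426 genes 6.83% were higher and 5.14% lower at that limit, and the median was -0.02. Rsad2, the antiviral enzyme viperin, differed by 0.59 (SE 0.18, adjusted p = 0.295), and Cmpk2, the nucleotide kinase encoded beside it, by 0.43 (SE 0.17, adjusted p = 0.399). Gbp3, a guanylate-binding protein, differed by -0.37 (SE 0.12, adjusted p = 0.295), and Cxcl9, a chemokine induced by interferon gamma, by -0.51 (SE 0.17, adjusted p = 0.296). The members thus pointed both ways. Of the genes named here, Cxcl9 lies on chromosome 5 at -28.5 Mb from Oas1b, inside the 30 Mb window of neighbours.

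Upstream of these genes, 14 receptor and signalling genes gave 0 calls and a median of -0.09. Irf1, a transcription factor induced by interferon gamma, was at -0.33 (SE 0.10, adjusted p = 0.295), Socs1, an inhibitor of the receptor kinases, at -0.35 (SE 0.19), and Irf7, which amplifies type I interferon, at 0.38 (SE 0.25). With the batches from uncentred controls as a block, Irf1 at -0.40 (adjusted p = 0.0262) and the exonuclease Isg20 at 0.71 (adjusted p = 0.0348) passed. Of 12 genes of double-stranded RNA sensing and RNase L, 0 passed at either limit and the median was -0.03, with the sensors Ifih1 at 0.35 (SE 0.18), Dhx58 at 0.21 (SE 0.19) and Ddx58 at -0.13 (SE 0.11) and their adaptor Mavs at -0.18 (SE 0.13).

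**Figure D4:**
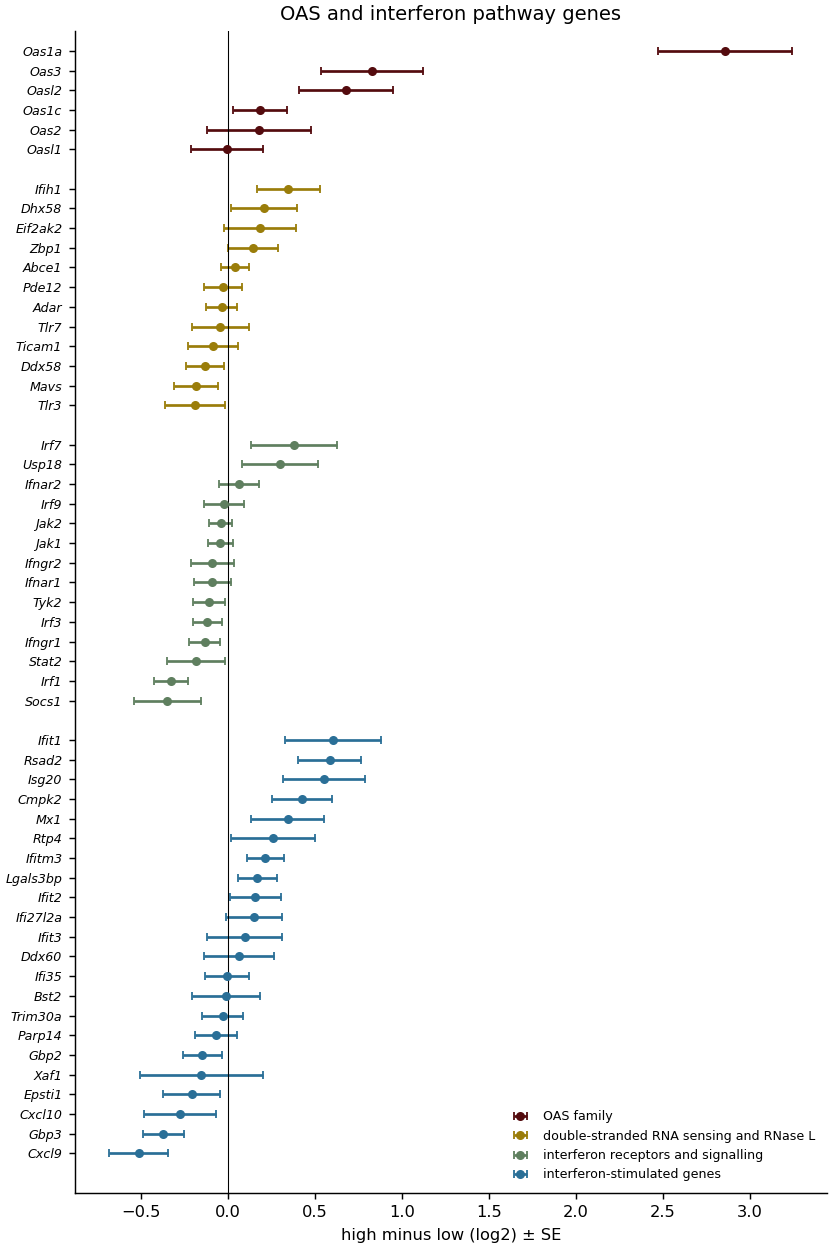
High minus low difference (log2) with its standard error for the tested OAS genes and for the listed genes of double-stranded RNA sensing, interferon signalling and interferon response, colours as in the key. Oas1a (2.86) is set apart, and the interferon-stimulated genes spread from -0.51 to 0.61 around 0.

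Within the 29 high spleens, the Oas1b level was also taken as a number, with the label as a term. No probe set was called by limma (0 of 27021, with 1002 at an unadjusted p under 0.05). The slope of Oas1a was 0.96 log2 units per log2 unit of Oas1b (SE 0.20, adjusted p = 0.409). Positive slopes at an unadjusted p under 0.05 were found for 5 of 6 OAS genes and 7 of 22 interferon-stimulated genes, against 265 of 12426 genes (2.13%). Slopes of either sign at that limit made up 3.69% of all genes. Arthritic 3, the spleen with the highest Oas1b and Oas1a levels, carried much of this: without it the counts were 2 of 6, 1 of 22 and 312 of 12426. Cxcl10, a chemokine of the interferon response, kept a slope of 0.58 with it and 0.57 without it.

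Markers of spleen cells were measured beside these genes, since in bulk tissue fewer cells of a type and less RNA per cell cannot be told apart. The lymphocyte genes Cd79a and Cd3g were bright in both sets. Cd79a, a B cell receptor component, had mean levels of 13.30 and 13.03 in the low and high set, and Cd3g of the T cell receptor complex 10.72 and 10.39. All 26 tested cell cycle genes were above 0 in the high set, 25 at an unadjusted p under 0.05, with a median of 0.43 and 0 calls. Over all 12426 genes 6.83% were higher and 5.14% lower at that limit. Without arthritic 18 the cell cycle count was 15 of 26 and the median 0.32. Leaving out that spleen also lowered the count over all 27021 probe sets, from 2588 to 1403 at that limit in either direction. Cell cycle examples from the fit with all arrays are the topoisomerase Top2a at 0.57 (SE 0.14), the spindle protein Tpx2 at 0.61 (SE 0.16), the spindle checkpoint kinase Ttk at 0.61 (SE 0.16) and the centromeric histone Cenpa at 0.40 (SE 0.11), each with an adjusted p of 0.280. This list was drawn up after such genes had been seen near the top of the fit.

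The 5 erythroid genes had a median of 0.48, all at an unadjusted p under 0.05, with the erythroid factor Klf1 at 0.64 (SE 0.21) and the band 3 anion exchanger Slc4a1 at 0.40 (SE 0.13). The 7 neutrophil genes had a median of 0.68, with 5 at that limit, including the calprotectin subunit S100a8 at 0.48 (SE 0.18) and the granule peptide Camp at 0.75 (SE 0.34). The 4 megakaryocyte genes had a median of 0.47, with the platelet chemokine Pf4 at 0.46 (SE 0.20). Lymphocyte genes stood on the other side, with medians of -0.25 for 5 B cell and -0.34 for 5 T cell genes, 3 of each at that limit. These counts rested in part on arthritic 18: without it the erythroid genes at that limit were 2 of 5 (median 0.34), the neutrophil genes 1 of 7 (median 0.65), the megakaryocyte genes 0 of 4 (median 0.31), the B cell genes 3 of 5 (median -0.24) and the T cell genes 1 of 5 (median -0.22). With all arrays 6.83% of all genes were higher and 5.14% lower at that limit. Without arthritic 18 the count over all 27021 probe sets, in either direction, fell from 2588 to 1403. None of the marker genes passed in the fit with label alone or with the batches from centred controls as a block.

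With the batches from uncentred controls as a block, 11 of the 26 cell cycle genes and 3 of the 5 erythroid genes (Klf1, Ermap and Tspo2) were called higher. Cd79a was called lower, and 0 neutrophil and 0 T cell genes were called. Over all 12426 genes, 208 were called higher and 54 lower with this block. In that fit Top2a stood at 0.63 (adjusted p = 0.0233), Klf1 at 0.76 (adjusted p = 0.0262) and Cd79a at -0.36 (adjusted p = 0.0464). The marker sums overlapped between the sets: the summed intensity of the erythroid list ran from 20570 to 58040 in the low and from 34440 to 79910 in the high set, and that of the neutrophil list from 40130 to 157400 and from 41670 to 190000. The sum of the 3 tested pancreas genes, whose median difference was -0.46, ran from 205.1 to 37310 and from 197.1 to 24600. The part of spleen composition in the differences of Oas1a and Stx2 was not tested.

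**Figure D5:**
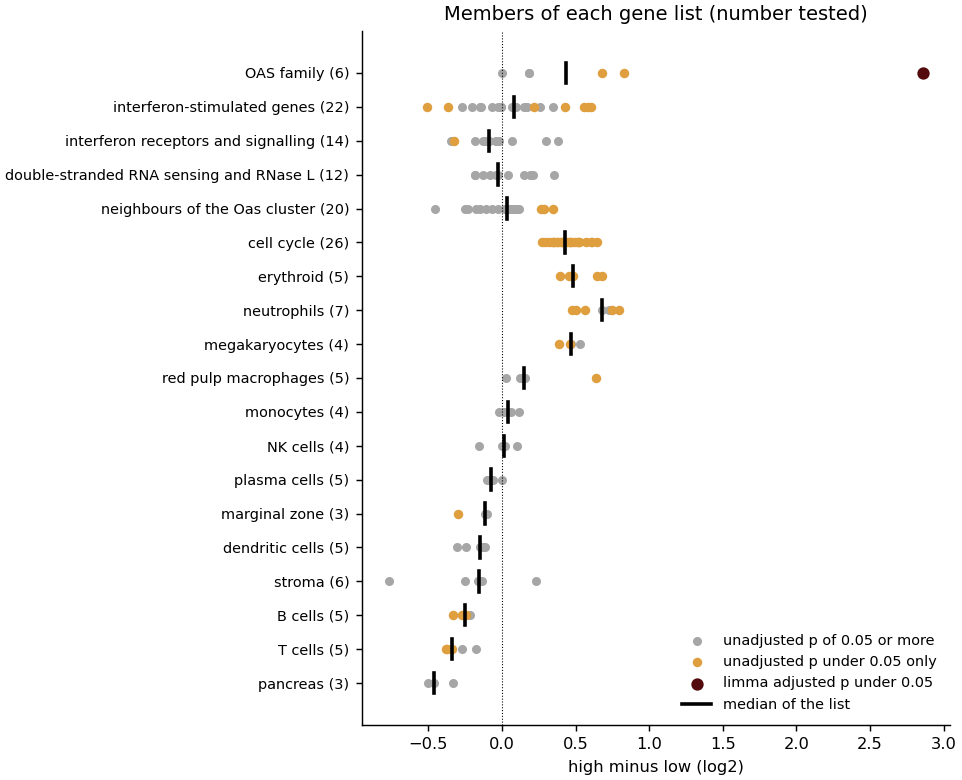
High minus low difference (log2) of each tested member of the gene and cell marker lists, 1 point per gene, with the number tested in brackets, black bars for list medians and colours for the limma p-values of the fit with label alone. Cell cycle (median 0.43), erythroid (0.48) and neutrophil (0.68) genes lie to the right, B cell (-0.25), T cell (-0.34) and pancreas (-0.46) genes to the left, and 1 gene of all lists, Oas1a, passes.

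A list of 7 other transcripts, whose levels had earlier been described as divided among these mice, was read beside Oas1b. Of these, 0 passed the adjusted limit and 0 the unadjusted one: the metalloprotease Adamdec1 stood at 0.85 (SE 0.73), H2-Ea and H2-Eb1 of the class II histocompatibility complex at -0.29 (SE 0.60) and -0.15 (SE 0.55), Zfp949 at -0.34 (SE 0.50), Exosc1 at -0.20 (SE 0.46), Gbp2b at -0.08 (SE 0.56) and Mndal at 0.04 (SE 0.89).

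The comparison was repeated within each label. In arthritic spleens limma called 2 probe sets (0.00740%), Oas1a and Atf6, a sensor of unfolded protein in the endoplasmic reticulum, at 1.81 (SE 0.25, adjusted p = 0.00589). In non-arthritic spleens it called 1 (0.00370%), a probe set with no gene name, at 2.32 (SE 0.36, adjusted p = 0.0443). Of these, Atf6 and the unnamed probe set were not called over all 36 spleens. With the batches from centred controls as a block, 0 probe sets were called in arthritic spleens, so neither Oas1a nor Atf6 passed there. The interaction of set with label passed for 3 probe sets, and for 0 with either batch definition as a block.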

How the data were processed

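Total RNA of individual spleens was extracted with Trizol, per the labels. The deposited values are array intensity on a linear scale, made by the authors with MAS5 (per the submitters' processing notes), whose version is not given. The trimmed mean was the same on all arrays (500.002 after 2% was taken off each end), and array medians ran from 110.6 to 183.2. Each array is taken to be 1 mouse, and precision is limited by how many arrays there are.

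Values were used as log2(intensity + 16) without further normalization, a scale that understates changes of dim probe sets. The 64 control probe sets and those with a mean below the 40th percentile (6.49) were left out, and Oas1b itself was not tested, which left 27021 probe sets. A gene was represented by its brightest probe set, named from the platform annotation and matched to RefSeq GRCm38.p6. High and low were compared with limma 3.58.1 in R 4.3.3 (lmFit, eBayes with trend, two-sided, p-values adjusted by Benjamini-Hochberg across the tested probe sets, threshold 0.05), checked on simulated data. Figures were drawn with matplotlib 3.10.9 in Python 3.11.15.

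Named genes are every measured OAS gene, genes called in the fit, up to 4 members of each list with the smallest unadjusted p, and the genes of other high and low spleens. The sets, lists and rule were chosen with earlier results of these data known. The cell cycle list, the fit within the high spleens, the fit without the arrays high in pancreas genes, and P2rx7, Ranbp2, Atf6, Isg20, Tspo2, Slc4a1, Cxcl10 and other genes outside the rule were chosen after values were seen. Technical batches are 3 Ward clusters of 18 hybridisation control probe sets. Clusters of uncentred controls were run first and clusters centred on each array's mean second. The centred ones were kept as batches A, B and C after both counts of calls had been seen, because their sizes match an earlier description of the batches, and both are reported.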

Additional observations from a re-analysis of the deposited data

Results flagged for a closer look

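In the 7 low spleens, 2 of 52 genes examined had 1 spleen apart from the other 6 by the Dixon test, which flags about 1 in 20 groups by chance, so this number is no more than chance gives. Exosc1 stood apart in arthritic 14 at 7.50 and Cd8a, a T cell co-receptor chain, in non-arthritic 13 at 8.83. Their causes were not tested.

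Set and label interacted for 3 probe sets by limma, each with a higher level in the high set among arthritic spleens and a lower one among non-arthritic spleens. For Dcaf7, an adaptor of a ubiquitin ligase, the interaction was 2.10 (adjusted p = 0.0253), with differences of 1.55 in arthritic and -0.55 in non-arthritic spleens. For Sema3d, a secreted semaphorin, it was 1.79 (adjusted p = 0.0368), with 0.99 and -0.79. For a probe set with no gene name it was 2.26 (adjusted p = 0.0368), with 1.63 and -0.63. With the batches from centred controls as a block, Dcaf7 gave 1.54 with an adjusted p of 0.477, and neither of the others passed.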

How the results depend on the processing

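The batch definition moved the results most. Batches from uncentred controls as a block gave 427 calls, 14 of them within 30 Mb of Oas1b and 413 elsewhere, with 3896 probe sets at an unadjusted p under 0.05. Batches from centred controls gave 3 calls, 1 of them elsewhere, with 4185 at that limit. Within arthritic spleens the blocks gave 1 and 0 calls in place of 2, in non-arthritic spleens 0 and 1 in place of 1, and for the interaction 0 and 0 in place of 3. Which definition better follows the processing of the arrays was not tested.

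The count of calls, 2 over all probe sets and among chromosome 5 neighbours, fell to 1 with median centring, with the replicate block, without the variance trend, without the arrays nearest the dividing value, with Oas1b as a number and without the arrays high in pancreas genes, each time leaving Oas1a alone. It was 0 by the Wilcoxon test, with 2042 at an unadjusted p under 0.05. The arrays high in pancreas genes were arthritic 8, non-arthritic 5 and non-arthritic 6, of which non-arthritic 5 belongs to the low set. The replicate numbers do not pair the spleens: correlations over 18 pairs ran from -0.23 to 0.47, 11 were over 0.1 and 2 spleens matched their own number best. With the replicate block Oas1a had an adjusted p of 0.0173.

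Leaving out 1 array gave 1 to 29 calls, 1 to 3 of them among chromosome 5 neighbours and 0 to 26 elsewhere. The 29 came without non-arthritic 13 (27 higher, 2 lower, 4 of the 26 cell cycle genes called). Probe sets at an unadjusted p under 0.05 ran from 1403 without arthritic 18 to 3379 without non-arthritic 13. Oas1a stayed called in all 36 such fits, from 2.56 to 3.32. Stx2 lost its call without arthritic 3, 5, 6, 7, 8, 11, 13, 14, 17 or 18 and without non-arthritic 2, 4, 5, 6, 8, 9, 12, 14, 15, 17 or 18. Within the high spleens quantile normalization gave 1 call in place of 0, and leaving out 1 array gave 0 to 1.

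Values near 0 turned sign. The value with Oas1b as a number is a slope per log2 unit of Oas1b, and that with the Wilcoxon test is a difference of medians. Oasl1 became 0.0125 with quantile normalization, 0.0102 with median centring, 0.107 with batches from uncentred controls, 0.0172 without the label, 0.0629 without the nearest arrays, 0.0674 with Oas1b as a number, 0.0607 without the pancreas arrays and -0.164 to 0.0820 leaving out 1 array. H2-Eb1 became 0.00203 with the replicate block, 0.0532 without the pancreas arrays and -0.53 to 0.0927 leaving out 1. Gbp2b became 0.00690 without the label, 0.23 without the nearest arrays, 0.0456 with Oas1b as a number, 0.16 without the pancreas arrays and -0.65 to 0.20 leaving out 1. Exosc1 became 0.0467 by the Wilcoxon test and 0.19 with batches from uncentred controls, and Mndal ran from -0.62 to 0.33 leaving out 1. The causes were not tested.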

Other observations

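Pi16, a peptidase inhibitor found on fibroblasts and some regulatory T cells, was picked after its values were seen. It differed by 0.82 (SE 0.17, limma adjusted p = 0.160), from 6.63 to 7.80 in the low and from 7.19 to 8.83 in the high set, and passed with the batches from uncentred controls as a block at 0.85 (adjusted p = 0.0228). Hemgn, a nuclear protein of red cell precursors, differed by 0.48 (SE 0.12, adjusted p = 0.280), and the lactate transporter Slc16a1 by 0.45 (SE 0.11, adjusted p = 0.280).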
